A study of Mus musculus with 2 samples.

Results

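The heat shock chaperone genes described here are 10 named genes: Hspb1, Hspa1a, Hspa1b, Dnajb1, Hsph1, Hsp90aa1, Hspa8, Hsp90ab1, Hspd1 and Hspe1. They were taken as a list of names, which was chosen with earlier results of these data known. All 10 have a row in both tables of read counts, out of 16943 nuclear genes listed for either plate. The cells are RFP-positive single cells sorted from organoids of mouse jejunum and ileum with the genotype given as Neurog3-RFP hom, in which a red fluorescent reporter marks cells that use Neurog3, the transcription factor gene that starts the enteroendocrine lineage. The control organoids received the solvent DMSO for 48 h and the others ISX-9, a small molecule known as an inducer of neuronal differentiation, for 48 h, with 1 plate of 384 wells for each treatment. The genotype and the sort were shared by both plates, and the sources used here do not give the number of animals or organoid lines behind a plate. Every plate difference below is therefore a difference between 2 libraries, has no replicate check and carries no p-value.

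Chaperones bind proteins that are unfolded or newly made and keep them from clumping. HSP70 proteins (Hspa genes) work in cycles driven by ATP with DNAJ partners and exchange factors, HSP90 proteins finish the folding of kinases and receptors, the HSP60 and HSP10 pair folds proteins inside mitochondria, and small heat shock proteins such as HSP27 (Hspb1) hold unfolded proteins without ATP. Under heat or other stress that unfolds proteins, the transcription factor HSF1 binds heat shock elements, repeats of GAA and TTC, in the promoters of inducible members, while constitutive members are made at all times. In the intestinal epithelium, heat shock proteins are known for protecting cells against injury.

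Wells with at least 2000 nuclear reads and 500 genes were kept, 300 of 384 in the DMSO plate and 290 of 384 in the ISX-9 plate. Kept wells held 14754827 nuclear reads in DMSO, with a median of 26340 per well, and 11801859 in ISX-9, with a median of 22509.5. Levels are reads scaled to a common nuclear total (CPM) over the summed wells of a plate, with an exact 95% Poisson interval that covers counting error only, because reads are amplified copies and not molecules. Taking 3 counts as the floor, a gene with 0 reads lies under 0.203 CPM (DMSO) or 0.254 CPM (ISX-9). Neurog3 was read in 49% of the wells with DMSO and 72.8% with ISX-9. All 6 endocrine progenitor markers had higher values in the ISX-9 plate (median log2 ratio 1.78), and all 6 goblet markers (-1.42) and all 5 Paneth markers (-2.23) had lower ones. Immune markers summed to 0.136 and 0.0847 CPM, and mesenchymal and endothelial markers to 0.949 and 14.5 CPM. Whether the cell mixture plays a part in the plate totals was not tested as such, and values within sets of wells divided by lineage genes are given below.

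Hspb1 set the chaperones of the 2 plates apart. It stood at 77.0 CPM in ISX-9 (95% Poisson interval 72.1 to 82.2; 909 reads) and at 0.746 CPM in DMSO (0.372 to 1.33; 11 reads), a ratio of 103.3. On the log2 scale, with 5 CPM added to both plates, the ratio of ISX-9 to DMSO was 3.84, a scale that understates the difference of a gene with so few control reads. By this ratio Hspb1 ranked 4 among the 9106 genes whose mean over both plates was 10 CPM or more, a level it reached only through the ISX-9 plate. An Hspb1 read was present in 103 of 290 ISX-9 wells (35.5%, exact 95% Clopper-Pearson interval 30.01 to 41.3). In DMSO it was present in 2 of 300 wells (0.667%, 0.0808 to 2.39). With each well thinned to 2000 reads, the shares were 11.4% and 0%, so the shares also differed at equal depth.

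The heat shock protein genes with a promoter window in the RefSeq table for build GRCm38.p6 were Hspb1, Hspa1a, Hspa1b, Dnajb1, Hsph1, Hspd1 and Hspe1, 7 members with 10 windows that run from 250 bases before to 50 bases after an annotated start. The 250 bases before the start are printed for Hspb1, the member with the largest plate difference, for Hspa1b, the second, and for Hspe1, a mitochondrial member whose level was nearly equal in both plates. They are written 5′ to 3′ on the gene's own strand, and capitals mark every match to GAANNTTC or TTCNNGAA, which hold 2 units of a heat shock element, with overlapping matches run together. Hspb1 lies at chr5:135887669-135887918 on the plus strand, Hspa1b at chr17:34959239-34959488 on the minus strand and Hspe1 at chr1:55087898-55088147 on the plus strand.
Hspb1: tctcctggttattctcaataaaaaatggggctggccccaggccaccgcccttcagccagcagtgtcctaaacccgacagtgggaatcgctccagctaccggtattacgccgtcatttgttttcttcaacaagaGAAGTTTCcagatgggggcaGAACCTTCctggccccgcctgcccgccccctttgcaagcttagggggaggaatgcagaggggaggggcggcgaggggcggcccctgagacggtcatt
Hspa1b: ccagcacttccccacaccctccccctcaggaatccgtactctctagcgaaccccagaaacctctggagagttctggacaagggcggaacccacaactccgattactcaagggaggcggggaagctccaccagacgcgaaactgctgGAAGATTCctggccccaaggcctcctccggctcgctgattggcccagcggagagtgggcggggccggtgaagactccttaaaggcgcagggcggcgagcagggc
Hspe1: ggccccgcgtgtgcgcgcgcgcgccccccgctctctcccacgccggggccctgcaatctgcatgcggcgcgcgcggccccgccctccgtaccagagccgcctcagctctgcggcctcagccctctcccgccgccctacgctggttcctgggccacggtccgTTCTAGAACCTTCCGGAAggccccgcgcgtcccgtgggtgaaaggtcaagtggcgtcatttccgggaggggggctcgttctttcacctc

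The Hspb1 window held 2 separate pairs of units, GAAGTTTC beginning 117 bases and GAACCTTC beginning 97 bases upstream of the start. Hspa1b held 1 pair, GAAGATTC, beginning 104 bases upstream. Hspa1a, its neighbour on chromosome 17 that encodes a nearly identical HSP70 protein, has the same pair at the same distance, and the windows of 300 bases of Hspa1a and Hspa1b differ at 4 bases. In Hspe1 the units run on into an element of more than 3 units between 89 and 72 bases upstream. The Hspd1 and Hspe1 genes are read away from each other from a shared region, and 1 of the Hspd1 windows overlaps the Hspe1 window by 285 bases, so both genes hold that element. Hsph1 (chr5:149636287-149636586, minus strand) holds TTCTCGAA beginning 33 bases upstream and the 3-unit element TTCTGGAAAGTTC from 37 to 49 bases after the start. Both Dnajb1 windows held no match.

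Counted over members, 3 of the 7 (Hspd1, Hspe1 and Hsph1) held 3 units in a row, which is GAANNTTC or TTCNNGAA followed after 2 further bases by one more unit that again alternates, against 0.662% of the 27025 genes in the table. Of these 3, Hspd1 and Hspe1 hold one and the same element. The looser form of 2 units, GAANNTTC or TTCNNGAA, was in 6 of the 7, all but Dnajb1, against 17% of genes. Each 2-unit form is its own reverse complement and the 3-unit forms are the reverse complements of each other, so the search covers both strands. The members with 3 units in a row had log2 plate ratios of 0.04 (Hspd1), -0.01 (Hspe1) and 0.38 (Hsph1). Of the members with pairs alone by these exact letters, Hspb1 had 3.84, Hspa1b 1.03 and Hspa1a, with the same pair at the same distance as Hspa1b, 0.36. Units with a changed base were not searched for and may lie beside a pair, so these forms do not rank the elements by strength. A match is a run of letters and not a site shown to be bound.

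The log2 ratio was at least 1, a 2-fold difference, upward for 2 of the 10 genes, Hspb1 and Hspa1b, which is 20% of the members against 4.51% of all 9106 genes. Because the list was chosen with earlier results of these data known, these shares are a description only. None of the 10 was at least 2-fold lower, against 1.19% of all genes. The ratio was positive for 7 members and negative for 3, and it was positive for 67.4% of all genes, so the signs of the members were near the background; with scaling to the spike-ins, Hspa8, Hsp90ab1 and Hspd1 turn negative. The median log2 ratio of the 10 was 0.18 (0.16 without Hspb1), against 0.15 over all genes, and 8 of the 10 lay within 0.4 of 0. Summed by role, the 5 inducible genes stood at 721 CPM in DMSO and 788 in ISX-9 (log2 ratio 0.13), the 2 constitutive cytosolic genes at 3782 and 4270 (0.17), and the 2 mitochondrial genes at 620 and 624 (0.01). The constitutive pair made up 73.8% of all reads of the 10 genes in DMSO and 74.1% in ISX-9. Hspb1 thus stood apart in a set whose other members, Hspa1b excepted, were at like levels in both plates.

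**Figure D1:**
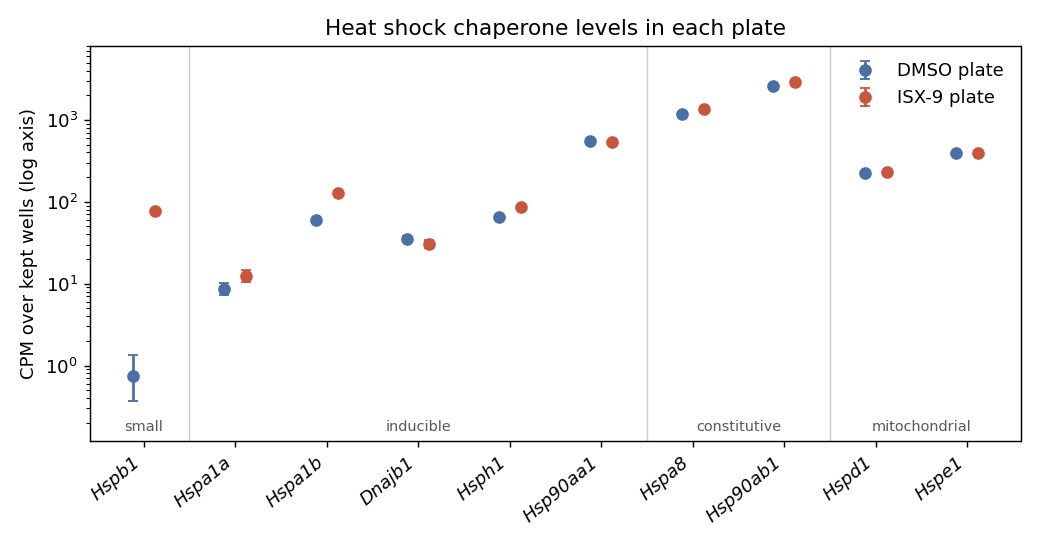
Level of each of the 10 genes, in CPM over the summed reads of the kept wells of a plate (log axis), with exact 95% Poisson intervals, which for most points are smaller than the marker. Hspb1 stands at 0.746 CPM in DMSO and 77.0 CPM in ISX-9, while the constitutive and mitochondrial genes stand almost level between plates.

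**Figure D2:**
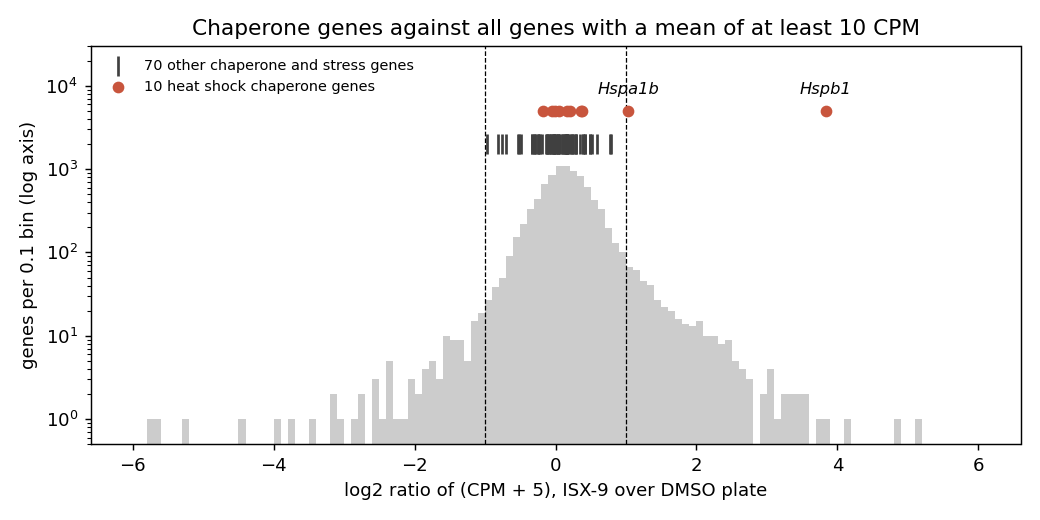
Log2 ratio of the plates (ISX-9 to DMSO, CPM + 5) for all 9106 genes whose mean was 10 CPM or more (grey bars, genes per bin of 0.1, log axis), for 70 other chaperone and stress genes (ticks) and for the 10 members (red points), with dashed lines at a 2-fold difference. Hspb1 at 3.84 and Hspa1b at 1.03 lie to the right of the upper line, and the other 8 members and all 70 other genes lie between the lines.

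Among the inducible members, Hspa1b, which encodes a stress HSP70 that most unstressed cells make in small amounts, had 59.2 CPM in the DMSO plate (55.3 to 63.2) and 126 CPM in the ISX-9 plate (120 to 133), which gives a log2 ratio of 1.03. Unlike Hspb1 it was well represented in the control: 80 of 300 wells with DMSO (26.7%) and 102 of 290 with ISX-9 (35.2%) had a read, and after thinning 10.7% and 13.1%. Its highest well had 1380 CPM in DMSO and 4599 CPM in ISX-9 and its upper quartile over wells was 17.6 and 90.8 CPM, while the median well of both plates had 0, and the values of the wells overlapped. The difference sat at the 2-fold line, and over 12 other ways of computing it the log2 ratio went from 0.73 to 1.08 and passed 2-fold in 5. Hspa1a had few reads, 127 in DMSO and 147 in ISX-9, at 8.61 CPM (7.18 to 10.2) and 12.5 CPM (10.5 to 14.6), and its log2 ratio was 0.36.

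Hsph1, which encodes the HSP110 exchange factor that resets HSP70, had 65.6 CPM with DMSO (61.5 to 69.9) and 86.9 CPM with ISX-9 (81.7 to 92.4), and its log2 ratio was 0.38. A read was found in 26% (DMSO) and 31.0% (ISX-9) of wells. Dnajb1, which encodes the HSP40 partner that hands clients to HSP70, had 35.2 CPM with DMSO (32.3 to 38.4) and 30.7 CPM with ISX-9 (27.6 to 34.0), with a read in 24% and 25.2% of wells. It had the lowest ratio of the 10, -0.17, and its Poisson intervals overlap. Hsp90aa1, the inducible cytosolic HSP90, had 552 CPM with DMSO (540 to 564) and 531 CPM with ISX-9 (518 to 545), with well medians of 389 and 380 CPM. The inducible genes therefore did not go one way between the plates.

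Of the constitutive members, Hspa8, which encodes the HSC70 protein that serves routine folding, had 1166 CPM with DMSO (1149 to 1184) and 1339 CPM with ISX-9 (1319 to 1360), and the median well had 712 and 902 CPM. Hsp90ab1, the constitutive HSP90, was the member with the most reads in both plates and had 2616 CPM with DMSO (2590 to 2642) and 2931 CPM with ISX-9 (2900 to 2962). It was read in 97.3% and 97.9% of wells. Their log2 ratios of 0.20 and 0.16 lie near the median of all genes, 0.15, and are -0.05 and -0.09 with scaling to the spike-ins. In the mitochondrion, Hspd1, the HSP60 folding chamber, had 225 CPM with DMSO (217 to 233) and 232 CPM with ISX-9 (223 to 241), and its lid Hspe1, the HSP10 protein, at 395 CPM (385 to 405) and 393 CPM (381 to 404). No plate difference larger than counting error was seen for these 2 genes.

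**Figure D3:**
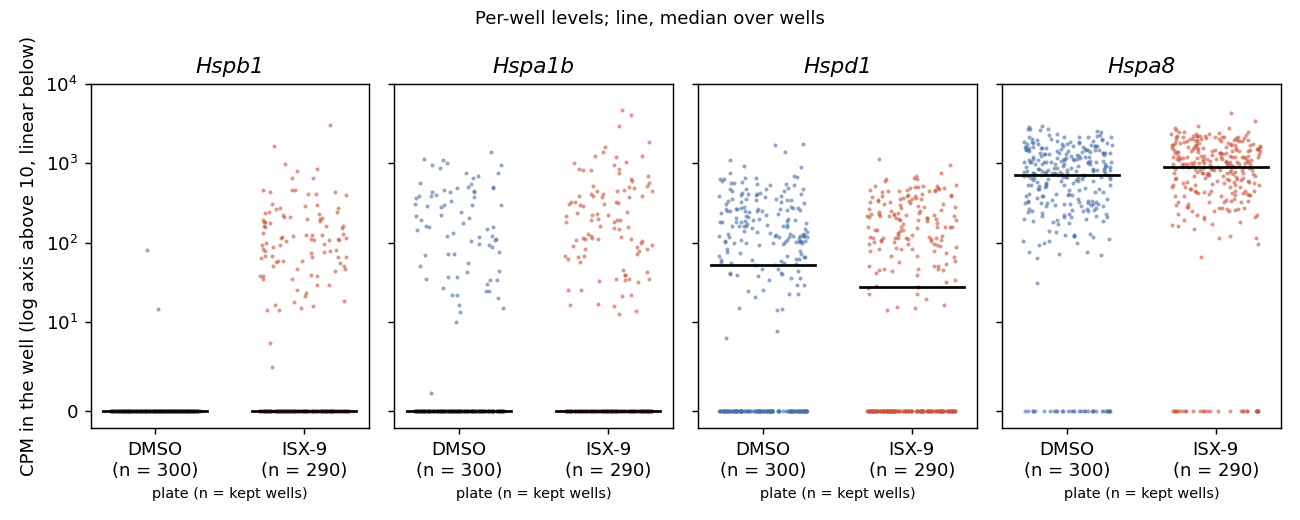
CPM per kept well (axis linear below 10 and logarithmic above) for Hspb1, Hspa1b, Hspd1 and Hspa8 in the DMSO plate (300 wells) and the ISX-9 plate (290 wells), with a line at the median over wells. Hspb1 has 2 wells above 0 in DMSO and 103 in ISX-9, while the other 3 genes have many wells above 0 in both plates, and the highest Hspa1b well is at 1380 CPM in DMSO and 4599 CPM in ISX-9.

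Reads that fit more than 1 gene limit some of these values. Of 426 overlapping stretches of 75 bases in the last 500 bases of the longest coding transcript in GENCODE release M21, 80.8% were shared with transcripts of other genes for Hspa8 (8 genes), 39.0% for Hspe1 (2 genes), 10.3% for Hspb1 (the pseudogene Hsp25-ps1) and 2.35% for Hsp90ab1 (1 gene). None was shared for the other 6, including Hspa1a and Hspa1b, whose coding parts are nearly identical but whose last 500 bases differ. The sources used here do not say how the authors' counting treated such reads, and the levels of Hspa8 and Hspe1 are uncertain against those copies.

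In the DMSO plate the 11 Hspb1 reads came from 2 wells. The first had 10 reads, 80.9 CPM in a well of 123562 reads, and the second had 1 read, 14.7 CPM in a well of 68028 reads. Both plates use the same 384 well barcodes, and the ISX-9 wells with the same barcodes as these 2 were kept and had 0 Hspb1 reads. In the ISX-9 plate the reads were spread over wells: the highest well held 76 of the 909 reads (8.36%), a well with Hspb1 had a median of 111 CPM, the highest had 3042 CPM, and 57 of 290 wells had at least 100 CPM. Of the 103 wells, 18 had 1 read, but reads are amplified copies, so further reads in a well need not be further molecules. The chance to see a read followed depth, with 81 of 153 ISX-9 wells of at least 20000 reads (52.9%) and 22 of 137 below that (16.1%) carrying Hspb1. The 170 DMSO wells of at least 20000 reads included the same 2 wells, a share of 1.18%, so the shares differed in deep wells too.

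To place the chaperones among the cell states of the sort, wells of each plate were divided by 9 lineage genes into those without a read of that gene, those with a read below 1000 CPM and those with at least 1000 CPM. The endocrine genes were Neurog3 (progenitors), Neurod1 (endocrine cells), and Chga and Tph1 (mature endocrine and serotonin-making enterochromaffin cells). The others were Muc2 (goblet cells), Lyz1 (Paneth cells), Sis (enterocytes), Lgr5 (stem cells) and Mki67 (dividing cells). Sets of at least 10 wells in both plates gave 25 pairs, which overlap because each well is counted once for every lineage gene. Hspb1 was at least 2-fold higher in ISX-9 in 25 of the 25, with log2 ratios from 3.16 to 5.04. In 13 of them DMSO had 0 Hspb1 reads, and there ISX-9 was at least 25.4-fold to at least 277-fold higher than the level of 3 counts. The high sets of the plates were not matched in level: their wells had 4349 CPM of Neurog3 in DMSO and 9309 in ISX-9, 6285 and 3835 CPM of Muc2, and 12891 and 5874 CPM of Lyz1. The part of the cell mixture in the Hspb1 difference was not tested beyond these sets.

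Within ISX-9, Hspb1 was found in all 25 sets of at least 10 wells, from 51.3 CPM in the 22 wells high in Lyz1 to 159 CPM in the 43 wells high in Muc2, a 3.10-fold range. The smaller sets high in Mki67 (2 wells) and Lgr5 (3 wells) had 0 Hspb1 reads, where 3 counts are 92.6 and 15.5 CPM. In wells without Neurog3 it stood at 99.6 CPM (86.8 to 114, 79 wells), with Neurog3 below 1000 CPM at 81.8 CPM (106 wells), and in the 105 Neurog3-high wells at 55.9 CPM (48.6 to 64.1). The log2 ratio of high over no read was -0.78, and -0.98 in wells of at least 20000 reads. Among wells without Neurog3, 1 well held 34.5% of the Hspb1 reads. With the top well of each set left out, the levels were 67.5 CPM without Neurog3 and 46.2 CPM in the high wells. The share of wells with a read did not follow this order, at 27.8%, 46.2% and 30.5%, and the median depth differed, at 11841 reads in wells without Neurog3 and 28136 in the high wells. Hspb1 was also lower in Neurod1-high wells, 62.6 CPM (53.9 to 72.3) against 97.2 CPM without Neurod1 (88.1 to 107), a log2 ratio of -0.60. Wells high in Neurog3 or in Neurod1 thus had less Hspb1 than wells without a read of that gene. Levels as low were seen in other sets, with 51.3 CPM in Lyz1-high wells and 55.9 CPM in wells with a Muc2 read below 1000 CPM.

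In Muc2-high ISX-9 wells Hspb1 stood at 159 CPM (139 to 181) against 73.1 CPM without Muc2 (66.6 to 80.2), a log2 ratio of 1.07. A single well held 30% of the reads in the high set, and as a mean over wells, which weights wells equally, the levels were 87.1 and 79.3 CPM and the ratio was 0.13. Levels over Tph1 were almost equal, 69.4 CPM in high wells and 70.4 CPM without a read. Over Sis they were 70.9 and 74.0 CPM, and over Lgr5 81.6 CPM with a read and 73.5 CPM without. Hspb1 in ISX-9 was therefore read both with and without each of these 3 genes.

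Hspa1b had the signs of Hspb1 over Neurog3, Neurod1 and Muc2 in ISX-9. It stood at 166 CPM without Neurog3 (150 to 184) and 93.7 CPM in Neurog3-high wells (84.1 to 104), a log2 ratio of -0.79, and at 247 CPM in Muc2-high wells (222 to 275) against 110 CPM without Muc2 (102 to 119), a log2 ratio of 1.13. In DMSO the Muc2 contrast pointed the other way, 71.4 CPM in high wells (63.2 to 80.4) against 125 CPM without Muc2 (107 to 144), a ratio of -0.76. The plate ratio of Hspa1b was 1.72 in Muc2-high wells and -0.17 in wells without Muc2. That of Hspb1 was 5.04 in Muc2-high wells and 3.97 in wells without Muc2, with 0 DMSO reads in both sets. Over the 25 pairs of sets, Hspa1b was higher in ISX-9 in 24 and at least 2-fold higher in 12. Its partner Hspa1a rested on too few reads for an order, with 13 reads in Neurog3-high DMSO wells and 47 in Neurog3-high ISX-9 wells.

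The constitutive genes and Hsph1 had the opposite sign for Neurog3-high wells over wells without Neurog3, in both plates. Hspa8 stood at 987, 1255 and 1317 CPM in DMSO and at 903, 1400 and 1503 CPM in ISX-9 over wells with no Neurog3 read, a low level and a high level, which are log2 ratios of 0.41 and 0.73 for high over none. Hsp90ab1 stood at 2257 CPM without Neurog3 and 3169 CPM in high wells of DMSO (0.49), and at 2512 and 3236 CPM in ISX-9 (0.36). Hsph1 did not rise steadily in DMSO, with 51.4 CPM in wells with a low level of Neurog3 (89.8 CPM in ISX-9). Without Neurog3 and in high wells it stood at 61.4 CPM (54.9 to 68.4) and 126 CPM (111 to 142) in DMSO, a ratio of 0.98. In ISX-9 these were 57.5 CPM (47.9 to 68.4) and 99.9 CPM (90.0 to 111), a ratio of 0.75. The sign of each was the same when wells were weighted equally, when they were thinned, among wells of at least 20000 reads and without the top well of each set. Hsp90aa1 in Neurog3-high wells had 727 against 554 CPM in DMSO (0.39) and 474 against 477 CPM in ISX-9 (-0.01). Dnajb1 had -0.43 in DMSO and 0.75 in ISX-9, and -1.14 and 1.41 with equal weight for each well.

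Goblet-type wells had less Hsph1. Muc2-high wells held 38.3 CPM of it in DMSO (32.4 to 45.0) against 71.5 CPM without Muc2 (58.3 to 86.9), and 41.9 CPM in ISX-9 (31.8 to 54.2) against 91.8 CPM (84.4 to 99.6), log2 ratios of -0.82 and -1.04. In ISX-9 that high set rested on 6 wells with an Hsph1 read, 1 of which held 60.3% of the reads, and without the top well of each set the ratio was -1.80. Hsp90aa1 had the same sign, 382 against 671 CPM in DMSO (-0.80) and 382 against 519 CPM in ISX-9 (-0.44). In wells high in Chga, the secretory granule protein of mature endocrine cells, Hspa8 stood at 821 against 1037 CPM in DMSO (-0.34, but 0.045 where high means at least 500 CPM of Chga) and at 881 against 1429 CPM in ISX-9 (-0.70). Hsp90ab1 in these wells stood at 2203 against 2499 CPM in DMSO (-0.18) and 2089 against 3120 CPM in ISX-9 (-0.58). The constitutive genes were thus higher where Neurog3 was high. Where Chga was high they were lower, except for Hspa8 in DMSO at the lower threshold, which was not applied to Hsp90ab1. Neurod1, another endocrine gene, did not follow Neurog3. In Neurod1-high DMSO wells Hspa8 stood at 773 against 1106 CPM without a read, and Hsp90ab1 at 1928 against 2598 CPM. In ISX-9 the values were 1262 against 1349 CPM and 2957 against 3011 CPM, and both signs turned with equal weight for each well.

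The mitochondrial pair, level between plates, varied over proliferation and endocrine genes. Hspd1 stood at 290 CPM in DMSO wells with an Mki67 read below 1000 CPM (279 to 302) and 148 CPM in those without (139 to 157), and at 336 CPM (321 to 352) and 137 CPM (128 to 147) in ISX-9, log2 ratios of 0.95 and 1.26. Hspe1 had ratios of 0.70 and 0.78 over the same wells. Wells with Mki67 were much deeper, with medians of 68132 against 16644.5 reads in DMSO and 77802 against 16309 in ISX-9. In wells of at least 20000 reads the Hspd1 levels were 293 and 155 CPM in DMSO and 340 and 152 CPM in ISX-9, so the difference was there in deep wells too, while after thinning the DMSO ratio was 0.34. Over Lgr5, the stem cell receptor gene, Hspd1 was again higher with a read, 277 against 125 CPM in DMSO (1.12) and 297 against 138 CPM in ISX-9 (1.08).

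Neurod1-high wells were low in Hspd1, at 78.4 CPM in DMSO (66.1 to 92.3) against 215 CPM without Neurod1 (204 to 227), and at 110 CPM in ISX-9 (98.6 to 123) against 283 CPM (268 to 300), log2 ratios of -1.40 and -1.32. With equal weight for each well the DMSO ratio was -0.61, from 98.5 against 153 CPM, and after thinning it was -0.52. Hspe1 had -1.08 in DMSO and -0.77 in ISX-9, but the ISX-9 value was 0.25 with equal weight for each well and 0.29 after thinning, so its direction there depends on the weighting. Hspa8 was higher with Mki67 as well, 1366 against 930 CPM in DMSO (0.55) and 1540 against 1161 CPM in ISX-9 (0.41). Hspb1 in ISX-9 stood at 66.6 CPM with Mki67 (60.0 to 73.7) and 86.9 CPM without (79.7 to 94.6), but the order turned after thinning, at 101.7 and 89.5 CPM. The share of wells with an Hspb1 read was 54.2% with Mki67 and 31.0% without, in sets of unequal depth, so no order is read from these values.

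**Figure D4:**
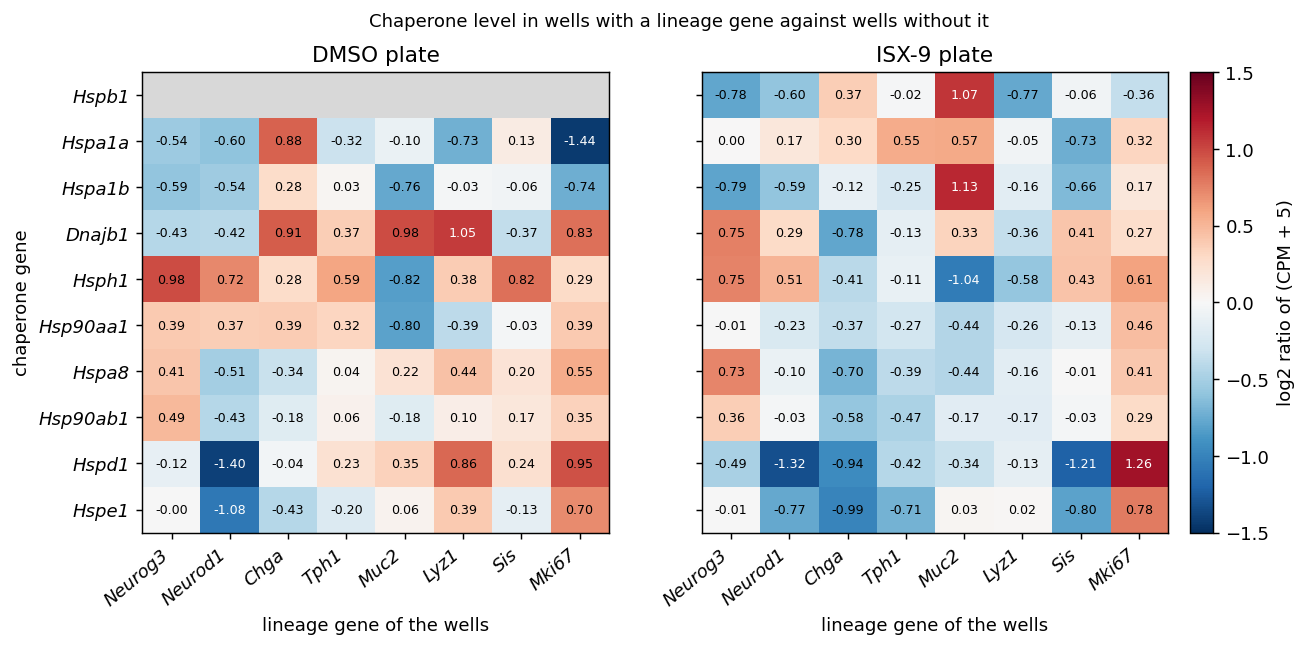
Log2 ratio of (CPM + 5) for each chaperone gene in wells with at least 1000 CPM of a lineage gene (for Mki67, wells with a read below 1000 CPM) over wells without a read of it, per plate, with Hspb1 greyed out in DMSO where it had 11 reads. Hspb1 and Hspa1b are negative over Neurog3 and positive over Muc2 in ISX-9, while Hspd1 is negative over Neurod1 and positive over Mki67 in both plates.

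Across wells of a plate the chaperones followed each other loosely. Spearman's rho of log2(CPM + 1) is given as a description, since wells share plate, depth and lineage. The 36 pairs without Hspb1 had a median rho of 0.22 in DMSO (0.02 to 0.58, 300 wells) and 0.21 in ISX-9 (-0.01 to 0.49, 290 wells), and medians of 0.06 and 0.07 after thinning. The highest was that of the constitutive pair Hspa8 and Hsp90ab1, at 0.58 and 0.49, with 0.32 and 0.34 after thinning. Hspd1 and Hspe1, which share a promoter region, had 0.42 and 0.43, with 0.15 and 0.12 after thinning, and Hspa1a and Hspa1b had 0.29 and 0.33. The 9 pairs of Hspb1 with the other members in ISX-9 had a median of 0.15 (0.05 to 0.25) and of 0.00 after thinning, and Hspb1 with the reads per well had 0.40. In counts this sparse such weak values are no finding about Hspb1 and the other chaperones.

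By rank of rho, the genes most like Hspa8 in DMSO, among 6020 genes read in 20% of the wells or more, were Hsp90ab1 (0.58), Ptma (0.51), Slc25a5 (0.50), Hnrnpa0 (0.50) and Snhg1 (0.49). In ISX-9, among 6529 genes, they were Eef1a1 (0.57), Eef1b2 (0.56), Hnrnpab (0.52), Npm1 (0.51) and Stmn1 (0.51). For Hspb1 in ISX-9 they were Atp5g1 (0.39), Abcc1 (0.37), Mocs2 (0.37), Tm4sf5 (0.36) and Cyb5 (0.36), against a median of 0.17 over all 6529 genes. These values share the depth of the wells, which for Hspb1 alone has 0.40.

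The wider chaperone network was described with 8 lists of 79 genes, all with a row, of which 70 had a mean of 10 CPM or more. None of the 70 was at least 2-fold higher or lower, against 4.51% and 1.19% of all genes, and the signs below stand beside 67.4% positive over all genes. All 12 genes of TRiC, the cytosolic folding chamber, and prefoldin, which delivers its clients, had positive ratios, from 0.01 to 0.42, with Pfdn5 at 83.1 against 60.7 CPM (0.42) and Cct2 at 478 against 364 CPM (0.39). Their median was 0.25, and a scaling to spike-ins shifts ratios by -0.25, as much as that median. Cochaperones had 10 positive and 4 negative ratios (median 0.16), with the HSP70 exchange factor Bag2 at 23.6 against 11.7 CPM (0.78). The chaperones of the endoplasmic reticulum had 3 positive and 8 negative ratios (median -0.26), with Hspa5, which encodes BiP, at 358 against 517 CPM (-0.52) and Dnajc3 at 55.9 against 98.6 CPM (-0.77).

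In the small heat shock and heat shock factor list, 4 genes had a mean of at least 10 CPM, and none was 2-fold higher or more. Hsf1 and Hsf2 among them encode factors, and Hspb8 and Cryab had means below 10 CPM and were left out of that count. Hspb8 had reads in both plates, and no ratio is given for it here. The count therefore says little about relatives of Hspb1. Hspb6 stood at 10.1 CPM in ISX-9 against 19.5 in DMSO (-0.70), Hspb11 at 12.4 against 8.20 (0.40) and the factor gene Hsf2 at 9.91 against 12.7 (-0.24). Cryab, another small heat shock protein gene, had 0 reads in DMSO and 0.508 CPM in ISX-9, all from 1 well. The heat shock factor gene Hsf1 stood at 58.6 against 61.3 CPM (-0.06). HSP70 relatives had 1 positive and 4 negative ratios (median -0.04), led by Hspa13 at 57.4 against 85.5 CPM (-0.53). DNAJ genes had 5 and 4 (median 0.10), with Dnajb4 at 5.68 against 15.9 CPM (-0.97). Among genes of proteotoxic and oxidative stress, 3 were positive and 2 negative, with the thioredoxin reductase gene Txnrd1 at 120 against 78.3 CPM (0.58). Immediate-early genes, which sorting and handling can switch on, had 4 positive and 6 negative ratios, with Atf3 lower, 8.22 against 18.4 CPM (-0.82), and Nr4a1 higher, 31.1 against 16.1 CPM (0.78), in ISX-9.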

How the data were processed

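Single cells were profiled by SORT-seq with CEL-Seq2 primers, which copy the 3′ ends of polyadenylated RNA with a well barcode and a molecular barcode of 4 bases. The authors deposited raw read counts, 1 table for each plate with a row per gene and a column per well. The counts are reads, not molecules. BWA (no version) and the human build hg19 are named in the submitters' processing notes, while the gene rows carry mouse symbols with a chromosome, so the build is uncertain and no coordinates were taken from the tables. Nuclear reads exclude spike-ins and mitochondrial genes; the ribosomal RNA precursor Rn45s was left in them (12.6% of DMSO and 6.10% of ISX-9 nuclear reads in kept wells).

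Wells with at least 2000 nuclear reads and 500 genes were kept, which left out 84 DMSO and 94 ISX-9 wells. Doublets were not called. Of the 384 barcodes that the plates share, 225 were kept in both; these are different cells. Reads were summed per plate or per set of wells and expressed as CPM with exact 95% Poisson intervals. Plate ratios are log2 of (CPM + 5). Shares of wells have Clopper-Pearson intervals and were repeated after thinning to 2000 reads per well. With 1 plate per treatment no test was made. Promoter windows came from RefSeq, matched by symbol; transcripts came from GENCODE M21. The members, lists and rules for named genes (up to 3 genes of each list with the largest absolute ratio, and the 5 genes of highest rho with Hspb1 and with Hspa8) were chosen with earlier results of these data known; Hsf1, Cryab and the promoters printed were chosen after their values were seen. Calculations were tested on simulated data and used Python 3.11.15, numpy 2.4.6, pandas 2.3.3, scipy 1.17.1 and matplotlib 3.10.9.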

Additional observations from a re-analysis of the deposited data

Results flagged for a closer look

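The 94 ISX-9 wells left out for low depth held 16 Hspb1 reads in 2 wells among 110974 nuclear reads, a level of 144.2 CPM, above the level of 3 counts there, 27.0 CPM. The 84 DMSO wells left out held 0 Hspb1 reads among 159699, which allows up to 18.8 CPM. These wells enter no comparison of plates above.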

How the results depend on the processing

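The Hspb1 log2 ratio of 3.84 was positive and past 2-fold under all 12 alternatives; it was 5.48 with a pseudocount of 1, 2.23 with 20 and 4.27 in thinned wells. The number of chaperone genes at least 2-fold higher went from 2 to 1 with a pseudocount of 20, as a mean over wells, in thinned wells, with median-of-ratios scaling, with ERCC scaling, with Rn45s out of the totals and without the 5% of wells with most reads; the gene lost was Hspa1b, past 2-fold in 5 of 12. The median of the 10 genes, 0.18, was 0.24 as a mean over wells, 0.015 with median-of-ratios scaling, 0.078 without Rn45s and -0.073 with ERCC scaling. These scalings shift the log2 ratios of abundant genes by -0.17 and -0.25, so the signs of Hspa1a, Hspa8, Hsp90ab1, Hspd1, Hspe1 and Dnajb1 depend on scaling or weighting. Using all 384 wells and leaving out the top well of each set were added after seeing the data. No paired analysis was possible because each treatment has 1 plate and the labels give no replicate numbers.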

Other observations

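Wells of the ISX-9 plate with an Hspb1 read differed from the other wells in their lineage genes. Among wells of at least 20000 reads, the 81 with an Hspb1 read stood at 1644 CPM of Neurog3 and the 72 without at 5574 CPM, a log2 ratio of -1.76. Neurod1 stood at 505 against 1004 CPM (-0.99), the goblet gene Muc2 at 596 against 189 CPM (1.63) and the Paneth gene Lyz1 at 465 against 122 CPM (1.89). Over all 290 wells these ratios were smaller, 0.71 for Muc2 and 0.62 for Lyz1. After thinning, Neurod1 was read in 45.5% of wells with Hspb1 and 44.0% of those without, so its share hardly differed. Neurog3 (39.4% and 49.4%) and Muc2 (39.4% and 19.1%) kept their direction. Lyz1 was read in 12.1% of thinned wells with Hspb1 and 16.3% of those without. By set, Hspb1 was at its lowest in Lyz1-high wells, so these values give no direction for Lyz1. Depth moves with these sets even here, with medians of 68371 and 39306.5 reads, and its part was not tested.

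Most of the other chaperones differed little between the same deep wells. Hspa8 stood at 1405 against 1399 CPM (log2 ratio 0.01), Hsp90ab1 had a ratio of 0.03, and Hsph1 and Hsp90aa1 of 0.04. Hspd1 had 0.19 (0.35 over all 290 wells), Hspe1 -0.10 and Dnajb1 -0.18. The stress HSP70 genes were higher with Hspb1, Hspa1b at 141 against 77.5 CPM (0.82) and Hspa1a at 14.1 against 6.61 CPM (0.72). Over all 290 wells the ratios were 0.49 for Hspa1b and 0.29 for Hspa1a, which rests on 147 reads, and 0.14 for Hspa8 and 0.13 for Hsp90ab1.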
